A study of Mus musculus with 7 samples.

Results

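The SLC25 family, the carrier proteins that move metabolites across the mitochondrial inner membrane, was measured in hearts labelled as knockout for AKT1 and AKT2. Carriers were taken as the genes whose RefSeq symbol begins with Slc25a. All 47 such genes had a probe on the array, and for 39 of them a probe exceeded background clearly on 3 or more of the 7 arrays. Each of these 39, among 23678 genes tested, is represented by its brightest probe. The other 8 were Slc25a2, Slc25a15, Slc25a21, Slc25a31, Slc25a41, Slc25a48, Slc25a53 and Slc25a54. Slc25a2 was above background on 1 array and Slc25a15 and Slc25a48 on 2, and the remaining 5 on 0 arrays.

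RNA of the heart apex of 7 male C57Bl/6 mice was hybridised to 1-colour Agilent arrays, 1 array per mouse. The 4 control mice were heterozygous for MHC-mercremer alone. The 3 double knockout mice (DKO) were heterozygous for MHC-mercremer and homozygous for floxed AKT1 and AKT2, with loxP sites around exons 6 and 7 of Akt1 and exons 5 and 6 of Akt2. MerCreMer is a recombinase that needs tamoxifen to act, and here the αMHC promoter drives it, so that deletion is directed to cardiomyocytes while the other cells of the heart keep both genes. Mice of both groups were 3 months old, were given 500 µg of hydroxytamoxifen daily over 5 days, and their hearts were taken 10 days after induction, with no other cardiac intervention. The comparison asks how transcripts of the heart differ after a deletion directed at both genes in cardiomyocytes. As the controls are described as MHC-mercremer alone, the deletion cannot be told apart from the floxed alleles and the chromosome around them. Because whole tissue was extracted, fewer cells of a type and less RNA per cell cannot be told apart.

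SLC25 carriers are built from a repeated pair of membrane helices and mostly work as exchangers that alternate between the matrix and the intermembrane space. They import ADP and phosphate for ATP synthesis, run the malate-aspartate shuttle, and bring in acylcarnitines, cofactors, iron and nucleotides that the matrix cannot make or lets in by no other route. The heart depends on them heavily because its ATP comes mostly from oxidation of fatty acids in mitochondria. AKT kinases relay insulin and growth factor signals that adjust the use of glucose and fat.

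Signals are given as log2 of the processed signal after each array was scaled to its 75th percentile, and a difference is DKO minus control on that scale, with its standard error (SE) from limma. A gene is called when its limma p, adjusted by Benjamini-Hochberg over all 23678 genes, is below 0.05. Probes differ in how they hybridise, so levels are compared between hearts and never between carriers. On each array 53.0% to 57.6% of spots stood well above background, with 0 saturated. Akt2 fell by 2.05 at its brightest probe (limma over probes, adjusted p = 0.000203). The brightest Akt1 probe differed by 0.17 (adjusted p = 0.199) and a dimmer one by 0.47 (0.139, both by limma over probes). The position of these probes against the deleted exons was not checked, so Akt1 gives no test of the labels. Control replicate 1 correlated less with the other controls (r from 0.984 to 0.987 across genes) than the closest arrays of a group did (0.994).

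The family as a whole was centred close to 0. The median difference over the 39 carriers was -0.0054, against -0.02 over all genes tested, with 19 carriers higher and 20 lower in DKO hearts. In 27 carriers (69.2%) the difference was smaller than 0.25 in size, as in 63.5% of all genes. The median deviation of the carriers from their control means lay between 0.01 and 0.03 in the 3 DKO hearts and between -0.08 and 0.08 in the 4 control hearts, so the DKO range sat inside the control range. Each mouse being a separate animal, these and all later p-values measure the spread between mice, and their small number limits the precision.

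A rise and a pair of falls passed the test. Slc25a42, the coenzyme A carrier, and Slc25a20, the carnitine/acylcarnitine carrier, fell in DKO hearts, and Slc25a28, the iron carrier mitoferrin-2, rose. These 3 of 39 are 7.69% of the carriers, beside 4.7% of all genes called; the 1 rise stands beside 2.41% of genes called higher and the 2 falls beside 2.29% called lower. At an unadjusted p below 0.05 there were 12 carriers (30.8%), 5 higher and 7 lower, where all genes gave 25.5%. Hearts of both groups were fully separate in 12 carriers (30.8%) against 25.7% of all genes. The shares of the family lie near those of the whole array, so nothing is particular to it by these counts.

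**Figure D1:**
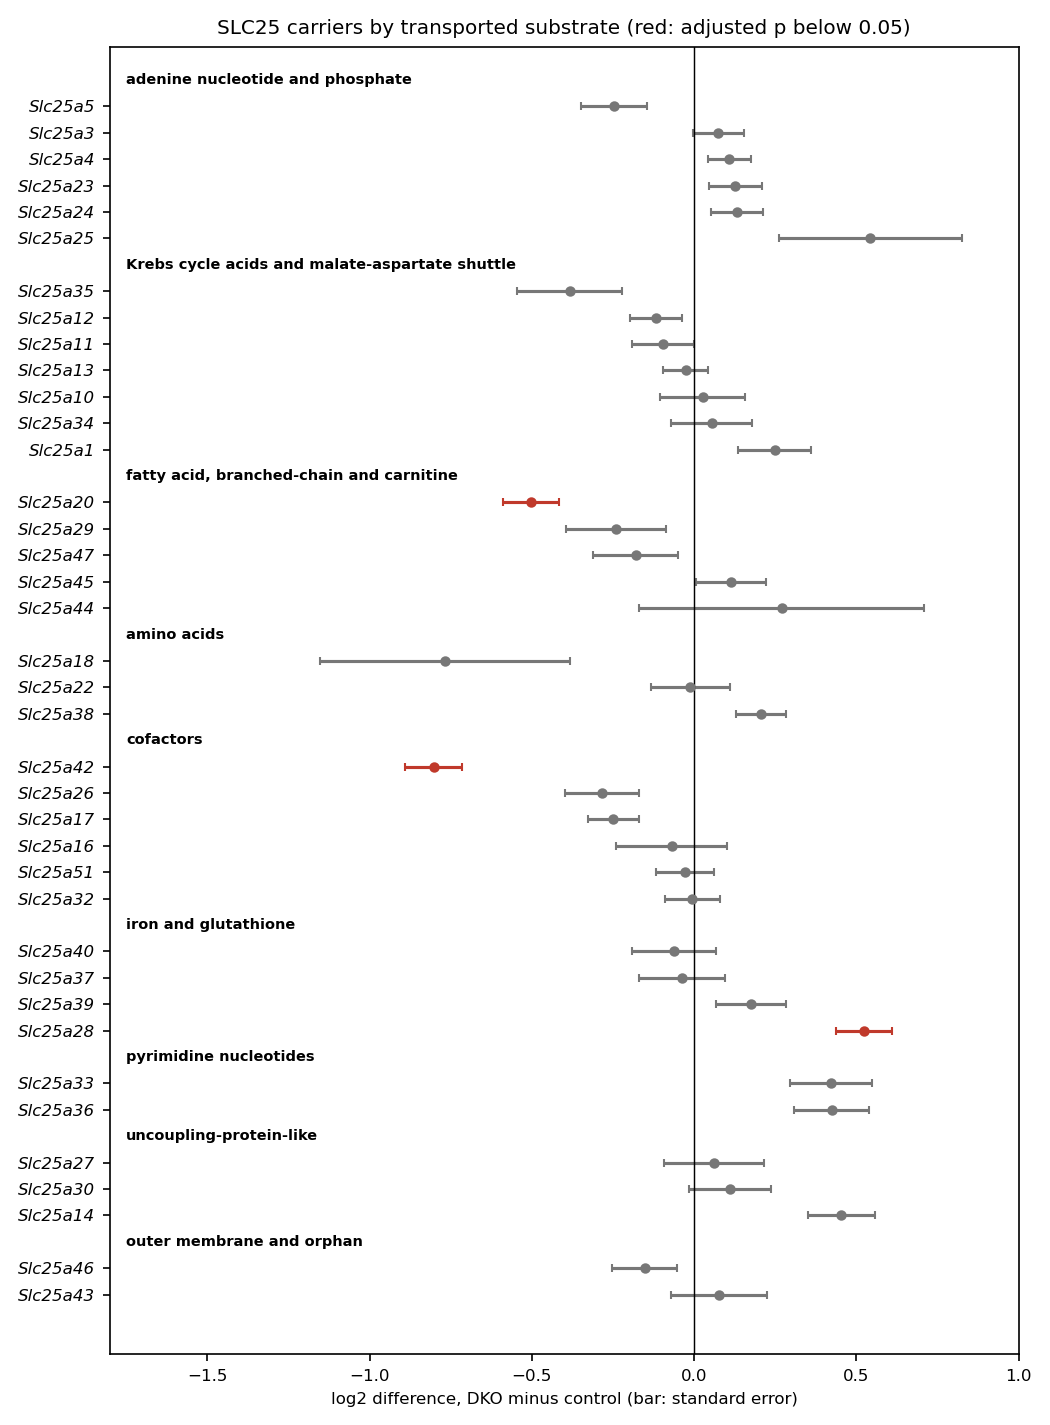
Difference of each carrier named in the text between DKO (n = 3) and control (n = 4) hearts on the log2 scale, grouped by substrate, with bars for the standard error. Slc25a42 at -0.80 and Slc25a20 at -0.50 lie lowest among the called carriers (red) and Slc25a28 at 0.52 highest, and the cofactor carriers drawn lie below 0 or, for Slc25a32, at it.

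The start regions of the 2 carriers that fell are shown because both have their RefSeq start site at the annotated edge of the gene. Each stretch holds the 250 bases before the start site in RefSeq GRCm38.p6, read on the gene's strand, at chr8:70212282-70212531 on the minus strand for Slc25a42 and chr9:108661886-108662135 on the plus strand for Slc25a20. Capitals mark a motif found by the search.
Slc25a42: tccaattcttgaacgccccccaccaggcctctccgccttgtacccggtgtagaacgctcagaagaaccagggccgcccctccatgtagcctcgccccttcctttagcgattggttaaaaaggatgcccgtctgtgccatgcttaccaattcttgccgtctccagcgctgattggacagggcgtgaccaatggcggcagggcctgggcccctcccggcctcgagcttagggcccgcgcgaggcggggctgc
Slc25a20: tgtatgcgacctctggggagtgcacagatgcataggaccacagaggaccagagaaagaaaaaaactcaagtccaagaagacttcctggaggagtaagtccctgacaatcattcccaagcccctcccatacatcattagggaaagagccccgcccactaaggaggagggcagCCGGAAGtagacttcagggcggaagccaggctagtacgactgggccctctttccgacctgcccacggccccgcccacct
Both strands were searched for 7 motifs of factors known from mitochondrial and metabolic genes. They were the PPAR element (AGGTCA repeated directly with 1 base between), the ERR element TCAAGGTCA, the NRF1 element GCGCATGCG, the FoxO element GTAAACA, the cAMP response element TGACGTCA, the E-box CACGTG and the ETS element CCGGAAG bound by GABP. The Slc25a20 window held the ETS element once, beginning 79 bases before the start, and the Slc25a42 window held none of them. The ETS element occurs in 6.91% of 32851 such windows and in 5 of the 30 carriers with a promoter entry (Slc25a3, Slc25a4, Slc25a17, Slc25a20 and Slc25a38). For each motif the share counts windows, while a carrier counts if any window listed for it holds the motif. Shares and carrier counts are therefore not directly comparable. The E-box occurred in 6.02% of windows and in 5 of the 30 carriers, and the cAMP response element in 1.55% and in Slc25a25 and Slc25a36. The FoxO, NRF1, ERR and PPAR elements occurred in 3.17%, 1.45%, 0.387% and 0.0335% of windows and in 0 of the 30 carriers. The windows were rich in G and C, at 63.6% for Slc25a42 and 56.8% for Slc25a20 against a median of 52.4%. The start site listed for Slc25a28 lies 125 bases inside the annotated gene, so its window, in which the search found no motif, is not shown. A match is a run of letters and not a measured binding site, and a missing match says nothing of the factor.

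Among the carriers of cofactors, Slc25a42 fell and none of the other 6 measured members was called. All 6 differences were negative with the 75th percentile scaling, but that of Slc25a32, at -0.0054, became 0.0023 with centring on the median of detected probes. Slc25a42 brings coenzyme A into the matrix, where it activates fatty acids and pyruvate-derived acetyl groups. Its signal in the control hearts was 13.25, 13.25, 13.17 and 13.01, and in the DKO hearts 12.44, 12.30 and 12.37. All 3 DKO hearts lay below every control heart, and the gap between the groups was wider than the range within either. The mean went from 13.17 ± 0.11 (SD, n = 4) to 12.37 ± 0.07 (SD, n = 3), a 1.74-fold fall (log2 difference -0.80 ± 0.09, SE; limma, adjusted p = 0.00886). Within slide row 1 (3 control and 1 DKO hearts) the difference was -0.78 and within row 2 (1 control and 2 DKO hearts) -0.88. Each of these rests on 1 heart in a group. With slide row as a block the limma adjusted p was 0.0328, and it stayed below 0.05 with any single heart left out (highest 0.0400, without DKO replicate 1).

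**Figure D2:**
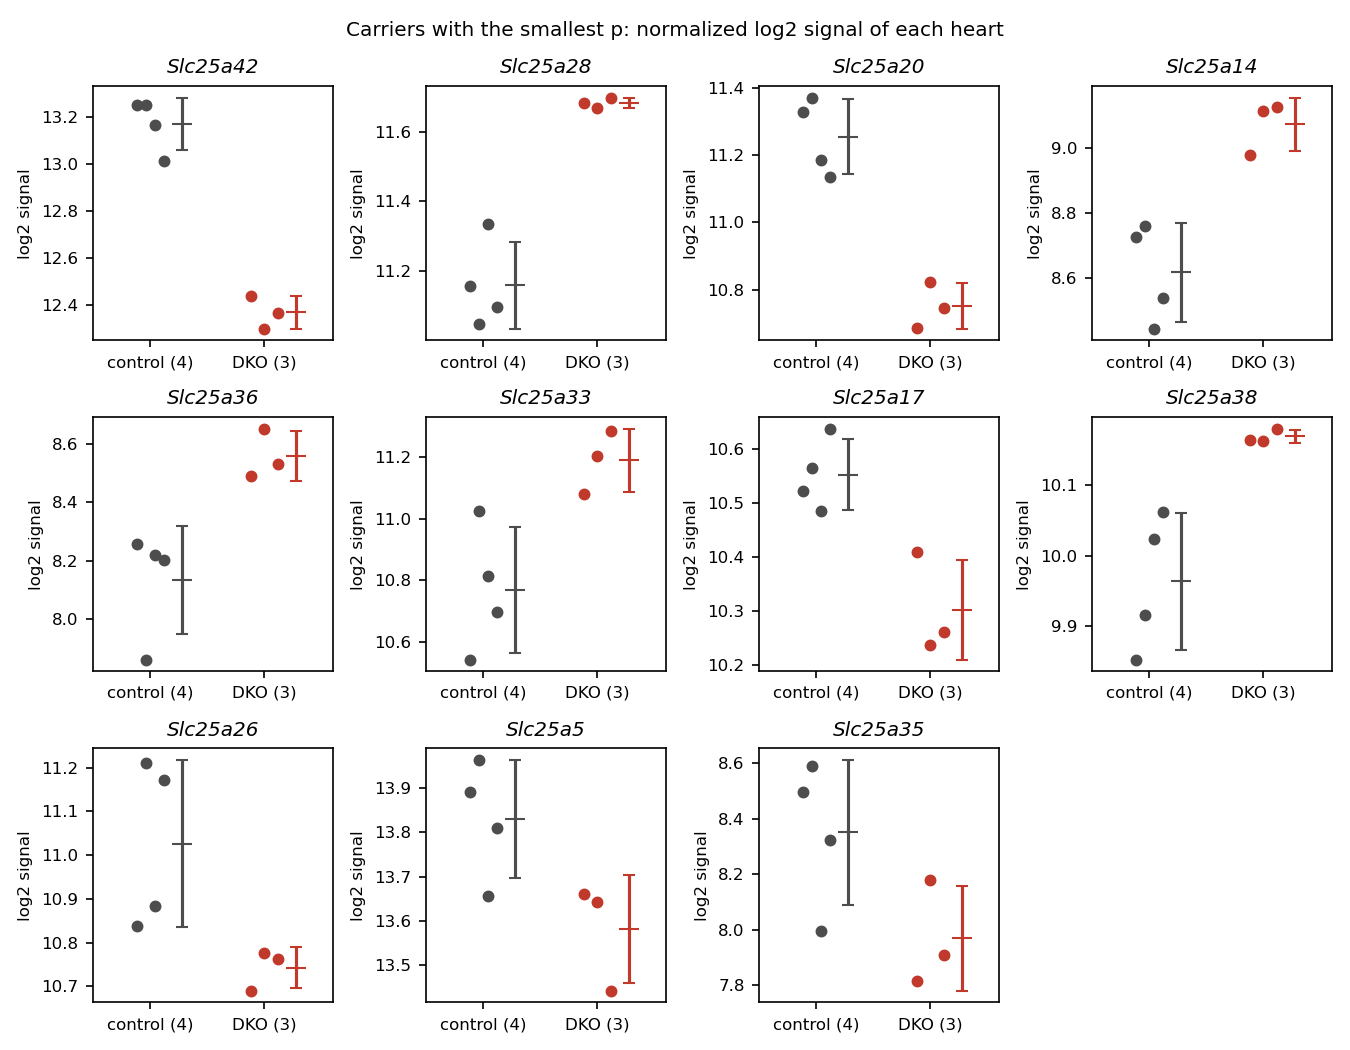
Normalized log2 signal of each heart for 11 of the 12 carriers with the smallest p, controls in grey and DKO in red, with the mean and SD beside the points; axes do not start at 0. Groups are apart for Slc25a42, Slc25a28 and Slc25a20 and overlap for Slc25a5 and Slc25a35, and the other carriers drawn are apart as well.

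Slc25a17, which moves coenzyme A and related cofactors across the peroxisomal membrane, gave 10.52, 10.56, 10.48 and 10.64 in control hearts and 10.41, 10.24 and 10.26 in DKO hearts. The groups did not overlap, and the difference was -0.25 ± 0.08 (limma, adjusted p = 0.114). Slc25a26, the S-adenosylmethionine carrier, gave 10.84, 11.21, 10.88 and 11.17 in control hearts and 10.69, 10.78 and 10.76 in DKO hearts. Here too every DKO heart was lower, by -0.28 ± 0.11 on average (limma, adjusted p = 0.180). The cofactor carriers Slc25a16, Slc25a51 and Slc25a32, of which the last pair serve NAD and folate, differed by -0.07, -0.03 and -0.01, with overlapping groups. The median over the 7 was -0.25, the lowest among the substrate groups, and 4 of the 7 (57.1%) had an unadjusted p below 0.05, beside 25.5% of all genes. The lists were chosen with earlier results of these data known, so this share is a description only.

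Slc25a20 was the one member called among carriers of acylcarnitines and related substrates. It exchanges acylcarnitine for free carnitine at the inner membrane, the step that admits long-chain fatty acids to beta-oxidation. Control hearts gave 11.33, 11.37, 11.18 and 11.14, and DKO hearts 10.69, 10.82 and 10.75. Every DKO heart was lower than every control heart. The mean fell from 11.25 ± 0.11 (SD, n = 4) to 10.75 ± 0.07 (SD, n = 3), or 1.42-fold (log2 difference -0.50 ± 0.09, SE; limma, adjusted p = 0.0292). This call rested on the full set of hearts: it held with control replicate 2 left out (adjusted p = 0.0473) and was lost without any other, reaching 0.101 without DKO replicate 1 and 0.0546 at the least, without control replicate 1. It was also lost with slide row as a block (0.0646) and with normexp background correction (0.147), although within row 1 the difference was -0.47 (3 control and 1 DKO hearts) and within row 2 -0.62 (1 control and 2 DKO hearts).

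The relatives of Slc25a20 did not pass. Slc25a29, a carrier of basic amino acids, differed by -0.24 and Slc25a47, best known from liver, by -0.18. These genes lie 45 and 44 tested genes from Akt1 on chromosome 12 in the RefSeq gene order. Slc25a45 differed by 0.11. Slc25a44, which carries branched-chain amino acids, differed by 0.27 ± 0.44 (SE). Its control SD was 0.80 and 1 of the 4 controls was not well above background, so little can be read from that probe. A dimmer Slc25a44 probe, well above background on all 7 arrays, gave 0.16 ± 0.10 (limma over probes, adjusted p = 0.343).

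Of 6 other genes of the carnitine shuttle, 1 fell and 0 rose (16.7% called, beside 4.7% of all genes). The median was -0.25, against -0.02 over all genes, and 1 call in so short a list says little of the shuttle. Slc22a5, the plasma membrane carnitine transporter, gave 10.24, 10.25, 10.12 and 10.23 in control hearts and 9.74, 9.74 and 9.90 in DKO hearts. The groups did not overlap and it fell by 0.41 ± 0.08 (limma, adjusted p = 0.0341), a call that was lost with any 1 heart left out (up to 0.113), with slide row as a block (0.0945) and with normexp and 75th percentile scaling (0.0683). With the mean of its probes in place of the brightest, the difference was -0.18 (0.174). Cpt1a, the liver-type acyltransferase of the outer membrane, differed by 0.38 (adjusted p = 0.0735), while the muscle type Cpt1b differed by -0.22 (0.176) and Cpt2, on the inner side, by -0.39 (0.267, all by limma).

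Slc25a28 rose while the other carriers of iron and glutathione did not pass. Slc25a28, or mitoferrin-2, and Slc25a37, or mitoferrin-1, bring iron into the matrix for haem and iron-sulphur clusters, the first in most tissues and the second mainly in erythroid cells. Slc25a28 gave 11.16, 11.05, 11.34 and 11.10 in control hearts and 11.68, 11.67 and 11.70 in DKO hearts. The DKO hearts were nearly identical and all above the highest control, replicate 3. The mean rose from 11.16 ± 0.13 (SD, n = 4) to 11.68 ± 0.01 (SD, n = 3), or 1.44-fold (log2 difference 0.52 ± 0.09, SE; limma, adjusted p = 0.0263). The call was lost without control replicate 4 (0.0855) and without DKO replicates 1, 2 and 3 (0.0903, 0.0826 and 0.0791), and with slide row as a block (0.0593). Within slide rows 1 (3 control and 1 DKO hearts) and 2 (1 control and 2 DKO hearts) the difference was 0.50 and 0.63. Slc25a37 differed by -0.04, and the glutathione carriers Slc25a39 and Slc25a40 by 0.18 and -0.06.

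The 8 endothelial markers were all higher in DKO hearts, 0 of them called, with a median of 0.20 and a log2 summed signal of 16.77 to 16.80 in DKO hearts against 16.50 to 16.72 in control hearts. Their part in the result was not tested. The 8 mural markers had a median of 0.21 and 1 call, Myh11 (12.5%, beside 4.7% of all genes). Their summed signals were 16.15 to 16.32 against 16.21 to 16.42. That sum weights Acta2 most, which differed by -0.41, while 5 of the 8 markers were higher and 3 lower. The 10 cardiomyocyte markers, all measured and 0 called, had a median of -0.06 and summed signals of 20.97 to 21.11 in DKO and 20.98 to 21.07 in control hearts. Of the erythroid markers 6 of 10 passed the filter, with overlapping sums (18.92 to 19.36 against 18.93 to 19.15), and Epb42 and Rhag were among those above background on 0 arrays. The 5 atrial markers measured, 3 higher and 2 lower, summed to 16.93 to 17.51 in DKO against 15.97 to 16.73 in control hearts. Nearly all of that sum was Nppa, at 16.92 to 17.50 in DKO and 15.94 to 16.71 in control hearts. Myl4 and Myl7 differed by -0.43 and -1.09, and Gja5 and Kcna5 by 0.09 and 0.08, so the sum does not speak for the list. The 3 adipocyte markers measured, 1 higher and 2 lower, gave 13.11 to 13.27 against 13.30 to 13.66. Most of that sum was Cidea, at 13.04 to 13.19 in DKO and 13.23 to 13.60 in control hearts. Of 8 fibroblast markers 7 were higher, with overlapping sums. Sums of the leukocyte and skeletal muscle markers also overlapped. These 5 lists held 0 calls, and their part was not tested.

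Genes that supply or use mitochondrial iron held 3 calls in a list of 13 (23.1%, beside 4.7% of all genes), 1 higher and 2 lower, with a median of -0.12. The list was chosen with earlier results of these data known, so this share is a description and no test of an excess. Tfrc, the transferrin receptor that takes up iron at the cell surface, gave 10.86, 11.21, 10.42 and 10.83 in control hearts and 8.87, 9.04 and 7.82 in DKO hearts. The groups were far apart, and Tfrc fell 4.77-fold (log2 difference -2.25 ± 0.32; limma, adjusted p = 0.0167), although without control replicate 4 or DKO replicate 1 the adjusted p was 0.0600 and 0.0571. Alas1, the first enzyme of haem synthesis outside red cells, gave 15.66, 15.67, 15.26 and 15.32 in control hearts and 14.90, 14.81 and 14.59 in DKO hearts. All DKO hearts were lower, and Alas1 fell by 0.71 ± 0.14 (limma, adjusted p = 0.0395). Iscu, the scaffold on which iron-sulphur clusters are built, gave 13.93, 14.07, 13.96 and 13.96 in control hearts and 14.39, 14.40 and 14.26 in DKO hearts. All DKO hearts were higher, and Iscu rose by 0.37 ± 0.08 (limma, adjusted p = 0.0431). The calls of Alas1 and Iscu were lost with any 1 heart left out, at up to 0.116 and 0.132, and that of Alas1 with the mean of its probes (0.0545). Iscu also lost its call under quantile normalization (0.25, adjusted p = 0.106), normexp with 75th percentile or quantile scaling (0.33, 0.0892 and 0.21, 0.252), the authors' values (0.30, 0.0619) and slide row as a block (0.32, 0.0960). The haem enzymes Cpox and Ppox differed by 0.26 and -0.20 and the cluster chaperone Hscb by 0.20, none of them called.

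**Figure D3:**
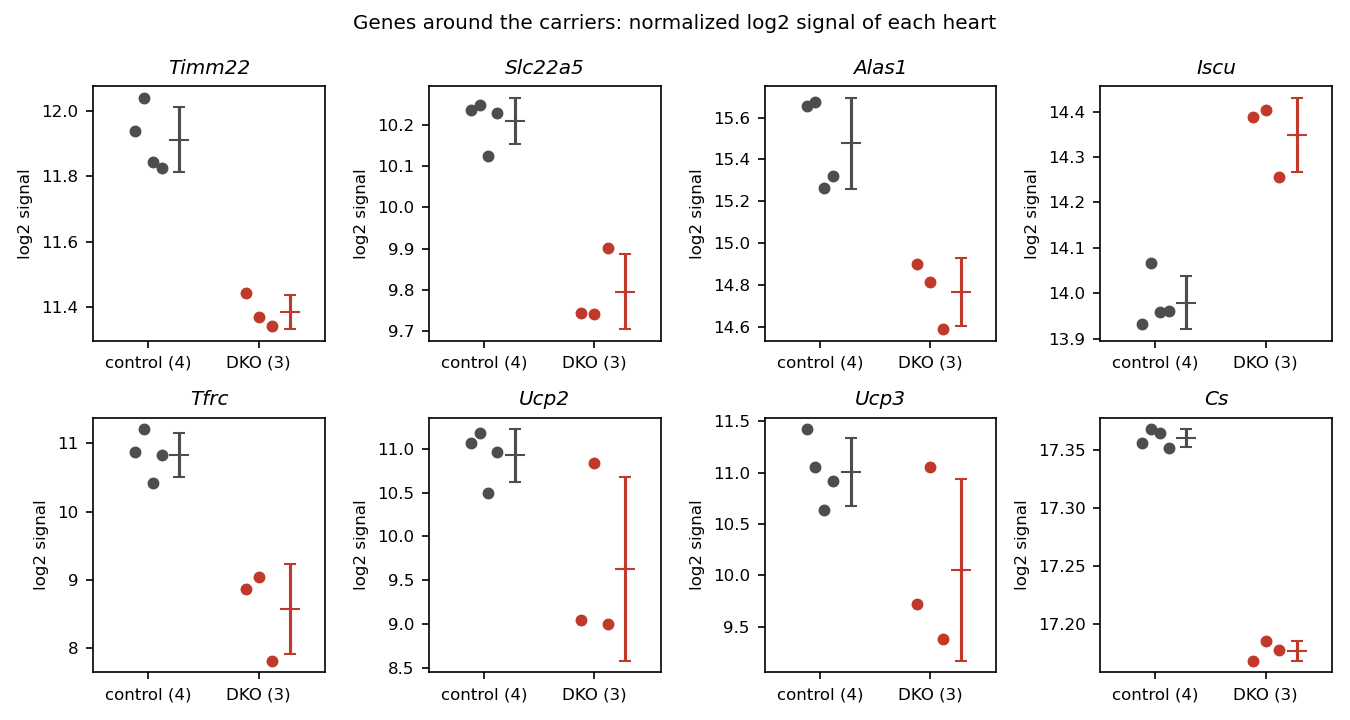
Normalized log2 signal of each heart for 8 genes described beside the carriers, controls in grey and DKO in red, with mean and SD. Axes do not start at 0. Timm22, Slc22a5, Alas1 and Tfrc lie lower and Iscu higher in all 3 DKO hearts, Cs lies lower without a call, and for Ucp2 and Ucp3 DKO replicate 2 stays at or near the control level.

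No carrier of adenine nucleotides or phosphate was called, beside 4.7% of all genes. Of the 6 measured, 5 were higher in DKO hearts, by 0.07 to 0.54. Slc25a4 is the ADP/ATP carrier that predominates in heart and skeletal muscle. It gave 18.43, 18.43, 18.42 and 18.46 in control hearts and 18.57, 18.58 and 18.48 in DKO hearts. The groups did not overlap, yet the difference was 0.11 ± 0.07 (SE; limma, adjusted p = 0.337), with a 95% interval from -0.04 to 0.26.

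Slc25a5, the ADP/ATP carrier of dividing and many other cells, ran the other way. Its signal was 13.89, 13.96, 13.66 and 13.81 in control hearts and 13.66, 13.64 and 13.44 in DKO hearts. DKO replicate 1 reached control replicate 3, so the groups overlapped, and the difference was -0.25 ± 0.10 (limma, adjusted p = 0.186). Slc25a3, the phosphate carrier, gave 16.26, 16.15, 16.06 and 16.24 in control hearts and 16.31, 16.23 and 16.23 in DKO hearts. The groups overlapped, with a difference of 0.07 ± 0.08 (limma, adjusted p = 0.585; 95% interval -0.11 to 0.26). A dimmer Slc25a3 probe gave -0.01. The calcium-regulated ATP-Mg/phosphate carriers Slc25a23, Slc25a24 and Slc25a25 differed by 0.13, 0.13 and 0.54, the last with an SE of 0.28.

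Carriers of Krebs cycle acids and of the malate-aspartate shuttle held 0 calls among 7 members, beside 4.7% of all genes. In so short a list 0 calls say little of the group. Slc25a11, the oxoglutarate/malate carrier, gave 16.29, 16.42, 16.09 and 16.23 in control hearts and 16.24, 16.13 and 16.11 in DKO hearts. The groups overlapped, with a difference of -0.10 ± 0.09 (limma, adjusted p = 0.558). Slc25a12, the calcium-stimulated aspartate/glutamate carrier of heart and brain, gave 13.95, 14.05, 13.88 and 13.94 in control hearts and 13.88, 13.90 and 13.73 in DKO hearts. Overlap was again present, with a difference of -0.12 ± 0.08 (limma, adjusted p = 0.395; 95% interval -0.30 to 0.07). Its liver-type counterpart Slc25a13 differed by -0.03. The citrate carrier Slc25a1 differed by 0.25, the dicarboxylate carrier Slc25a10 by 0.03 and Slc25a34 by 0.05. Slc25a35, a relative of the dicarboxylate carriers, gave 8.50, 8.59, 7.998 and 8.32 in control hearts and 7.82, 8.18 and 7.91 in DKO hearts. DKO replicate 2 lay above control replicate 3, and the difference was -0.38 ± 0.16 (limma, adjusted p = 0.196).

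The enzymes paired with these carriers gave 0 calls of 10, beside 4.7% of all genes, with a median of -0.05. Gpd1, the cytosolic enzyme of the glycerol phosphate shuttle, differed by -0.73 (adjusted p = 0.0888) and Ogdh by 0.19 (0.148, both by limma). Cs, citrate synthase, gave 17.36, 17.37, 17.37 and 17.35 in control hearts and 17.17, 17.19 and 17.18 in DKO hearts. Its groups were separate and very tight, and the difference was -0.18 ± 0.06 (limma, adjusted p = 0.126), the SE being drawn toward that of other genes by the fit.

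Both pyrimidine nucleotide carriers were higher in every DKO heart, and neither was called. Slc25a33 and Slc25a36 supply nucleotides for mitochondrial DNA and RNA synthesis. Slc25a33 gave 10.54, 11.03, 10.81 and 10.70 in control hearts and 11.08, 11.20 and 11.29 in DKO hearts. The nearest hearts of the groups, control replicate 2 and DKO replicate 1, lay close together. The difference was 0.42 ± 0.13 (limma, adjusted p = 0.102). It was 0.60 within slide row 1 (3 control and 1 DKO hearts) and 0.12 within row 2 (1 control and 2 DKO hearts). Slc25a36 gave 8.26, 7.86, 8.22 and 8.20 in control hearts and 8.49, 8.65 and 8.53 in DKO hearts. Control replicate 2 stood below the rest, and the difference was 0.42 ± 0.12 (limma, adjusted p = 0.0847), at 0.31 and 0.71 within rows 1 and 2. A dimmer Slc25a36 probe gave -0.12 (adjusted p = 0.860 over probes), the opposite sign.

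Slc25a14, an uncoupling-protein-like carrier also named UCP5, came closest to the threshold from above. It gave 8.73, 8.76, 8.45 and 8.54 in control hearts and 8.98, 9.11 and 9.13 in DKO hearts. All DKO hearts were higher, by 0.45 ± 0.10 on average (limma, adjusted p = 0.0549). Its relatives Slc25a27 (UCP4) and Slc25a30 differed by 0.06 and 0.11. Uncoupling proteins proper, named for the proton leak through UCP1 in brown fat, belong to the family but lack the Slc25a symbol. Of the 5 genes of that list 4 were measured, with 0 called beside 4.7% of all genes. Ucp2 gave 11.07, 11.19, 10.50 and 10.97 in control hearts and 9.05, 10.84 and 8.99 in DKO hearts. DKO replicates 1 and 3 were well below all controls and replicate 2 among them, and the mean difference of -1.30 ± 0.45 did not pass (limma, adjusted p = 0.138). The adjusted p was 0.0243 without DKO replicate 2 and 0.182 to 0.327 without any other heart (limma). Ucp3, its neighbour on chromosome 7, had the same pattern, at 11.43, 11.05, 10.63 and 10.92 in control hearts and 9.73, 11.06 and 9.38 in DKO hearts. Its difference was -0.95 ± 0.40 (limma, adjusted p = 0.192). Without DKO replicate 2 it was -1.45 (0.0522), and without any other heart the adjusted p was 0.227 to 0.427 (limma). Ucp2 and Ucp3 lie 468 and 467 tested genes from Akt2. Mtch1 and Mtch2, outer membrane homologues, differed by -0.10 and -0.08, and Ucp1 was above background on 0 arrays.

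The 3 amino acid carriers measured held 0 calls, beside 4.7% of all genes, which says little in so short a list. Slc25a38, which brings in glycine for haem synthesis, gave 9.85, 9.92, 10.02 and 10.06 in control hearts and 10.16, 10.16 and 10.18 in DKO hearts. The DKO hearts were almost equal and above all controls, with a difference of 0.21 ± 0.08 (limma, adjusted p = 0.158). The glutamate carrier Slc25a22 differed by -0.01. The other glutamate carrier, Slc25a18, gave 5.60, 3.84, 4.82 and 4.65 in control hearts and 3.602, 4.11 and 4.17 in DKO hearts, near background. It was well above background in 3 control hearts and in 0 DKO hearts, so that it passed the filter through the control group alone, and control replicate 2 lay below DKO replicates 2 and 3. Its difference, -0.77, is given as a description only. Slc25a46, which sits in the outer membrane, differed by -0.15, and the orphan Slc25a43 by 0.08.

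**Figure D4:**
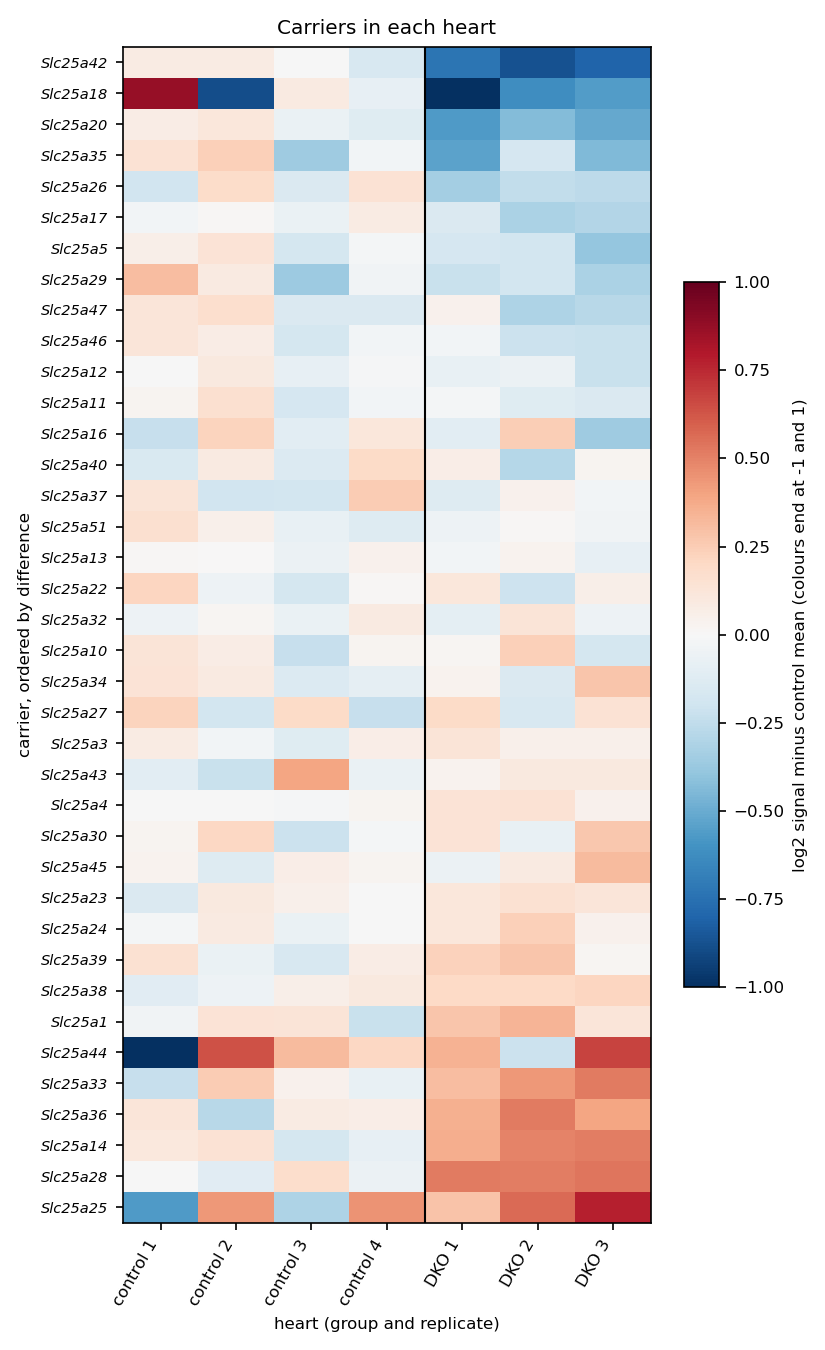
The log2 signal of each carrier named in the text minus its control mean, in each of the 7 hearts (colours end at -1 and 1), ordered by the difference between groups. Most rows are pale in all hearts, Slc25a42 and Slc25a20 are blue and Slc25a28 red in the 3 DKO hearts, and Slc25a18, Slc25a44 and Slc25a25 vary within the controls.

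Probes of the same carrier mostly gave the same sign. Of the 39 carriers 19 had a further kept probe, 23 probes in all, of which 17 had the sign of the brightest and 0 were called. The called carriers Slc25a42, Slc25a28 and Slc25a20 each had 1 kept probe, so no second probe bears on them.

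Carriers are made in the cytosol and inserted into the inner membrane by the TIM22 route. Of its 12 measured genes 1 fell and 0 rose (8.33% called, beside 4.7% of all genes). The median was -0.12, against -0.02 over all genes, and 1 call in so short a list says little of the route. Timm22, the pore of the complex, gave 11.94, 12.04, 11.85 and 11.83 in control hearts and 11.44, 11.37 and 11.34 in DKO hearts. All DKO hearts were lower, and Timm22 fell 1.44-fold (log2 difference -0.53 ± 0.08; limma, adjusted p = 0.0207). The call was lost without control replicate 4 (0.0588) and without DKO replicates 1, 2 and 3 (0.0671, 0.0751 and 0.0705). The intermembrane chaperones Timm9, Timm8a1 and Timm13 differed by -0.33, -0.37 and -0.20 and their partners Timm10 and Timm10b by 0.20 and 0.05, none of them called.

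Other transport genes of the mitochondrion held no calls, beside 4.7% of all genes. In this and the short lists that follow, 0 calls say little of the group. Among 17 other inner membrane carriers and channels the median was -0.02, with the smallest p for the ABC transporter Abcb10 (-0.36, adjusted p = 0.0565), and the ion exchanger Letm1 differed by -0.38 (0.122, both by limma). The porins Vdac1, Vdac2 and Vdac3 of the outer membrane differed by -0.11, -0.09 and -0.12. Of the 8 creatine and adenylate kinases, the smallest p belonged to Ak1 (-0.35), Ak4 (-0.29) and Ak3 (-0.24), none called. Of 13 regulators of mitochondrial biogenesis 0 were called, with a median of -0.09, and the smallest p belonged to Tfam (-0.23), Ppargc1a (-0.21) and Ppargc1b (-0.49).

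**Figure D5:**
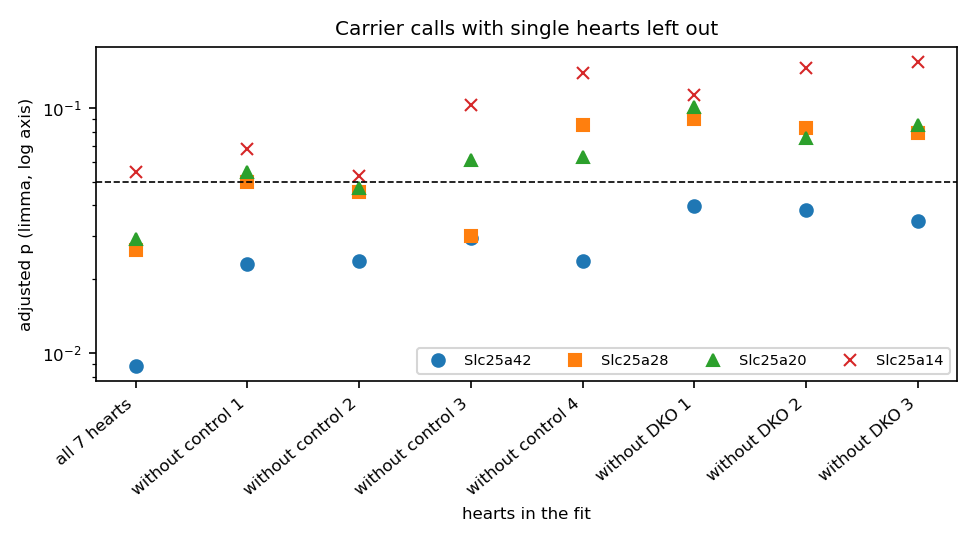
Adjusted p (limma, log axis) of the carriers with the 4 smallest p with all 7 hearts and with each heart left out; the dashed line is 0.05. Slc25a42 stays under the line throughout, Slc25a28 in 3 and Slc25a20 in 1 of the 7 reduced fits, and Slc25a14 in none.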

How the data were processed

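The authors quantified the scanner images with Agilent Feature Extraction 12.0.3.1 on array design 074809, with mm9 positions, per the file headers. Each deposited file gives 1 array's spot signals after background subtraction, as a linear intensity. In their deposited value table the authors gave log2 values, which matched quantile-normalized, probe-centred signals (r at least 0.9997, column medians 0) and served as an alternative. All 7 arrays lay on 1 slide read in 1 scan.

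Flagged and control spots were left out, log2 taken, and each array's 75th percentile subtracted, with 9.14 added back. Probes were named by accession through RefSeq GRCm38.p6, and 32994 of 56605 matched. The test was limma 3.58.1 under R 4.3.3 (group alone, 5 residual degrees of freedom, two-sided). The fit was also run on simulated data with independent noise for each gene. Such data hold no effects shared within an array, so they do not bear on those. Same-numbered arrays shared little deviation from their group means (r 0.13, 0.01 and 0.03). The labels do not say whether the numbers pair mice, and these correlations cannot settle it. The replicate block was therefore kept as an alternative. The measured carriers are named, except that a few genes are included in counts and medians but not reported here. All 7 values are given for named carriers with an unadjusted p below 0.05 and for the main ATP, shuttle and carnitine carriers, as are called genes and up to 3 others per related list; where single hearts are also shown for Ucp2, Ucp3 and Cs, this was chosen after their values were seen. The carriers and lists were chosen with earlier results of these data known. Alternatives covered scaling, background correction, filter, probe rule, variance model, array weights, blocks and each array left out. The files gave no mean spot signal, so normexp (offset 50) used the median signal. Protein sequences were not used here.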

Additional observations from a re-analysis of the deposited data

Results flagged for a closer look

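Single control hearts stood apart in 1 of 39 carriers and in 1 of the 34 other genes described, where chance gives about 1 in 20 groups. Slc25a36 was 7.86 in control replicate 2, against 8.20 to 8.26 in the other control hearts. Slc22a5 was 10.12 in control replicate 3, against 10.23 to 10.25 in the others.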

How the results depend on the processing

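The 16 carriers recomputed kept their direction under all 20 alternative settings; with another probe Slc25a36 gave -0.12 and Slc25a3 -0.011, opposite to their brightest probes, and the cause was not tested. The count of 3 called carriers became 1 with no filter on dim probes, which tests more genes, 1 with slide row as a block and 0 with the replicate block, and ranged from 1 to 3 with single hearts left out. It was 2 to 4 under the remaining settings, where Slc25a14 joined with the filter on all 7 arrays, with a variance trend and with array weights. The count of 1114 genes over the array became 549 and 714 with normexp (75th percentile and quantile scaling), 121 with no filter, 2007 with a trend, 1680 with array weights, 288 with the slide row block and 1 with the replicate block, and ranged from 160 to 1127 with single hearts left out; apart from the smaller samples, the cause was not tested. Under the replicate block, which drops control replicate 4 because it has no partner, Slc25a42 had an adjusted p of 0.123, Slc25a28 0.155 and Slc25a20 0.143 (limma). The carrier median stayed between -0.05 and 0.05 throughout. Signals near background limit Slc25a18. For Slc25a44 the limit is the spread of its brightest probe, with 1 control heart not well above background.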
